A study of Mus musculus with 12 samples.

Results

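Histones are the proteins around which DNA is wound, and the genes described here are the ones named for the clusters in which most of them lie. All genes of the deposited table whose symbols begin with H1f, H2ac, H2bc, H3c or H4c and a digit were taken, which gave 55 of the 15170 genes listed. They comprised 6 linker histone genes of type H1 and 13 H2A, 13 H2B, 12 H3 and 11 H4 genes, which encode the core histones. By their Entrez gene identifiers all 55 matched the RefSeq table of the mouse assembly GRCm38.p6. There 43 lay on chromosome 13 and 10 on chromosome 3, in the large and the smaller histone gene clusters. H1f0 on chromosome 15 and H1f10 on chromosome 6 lay outside them, so the name of a replication cluster gene holds for 53 of the 55.

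The RNA came from tumor blocks of mice carrying MC38, a line of mouse colon adenocarcinoma cells, and the labels give the genotype as wild type. The mice had received either vehicle or BG136 by vein, BG136 being a soluble glucan with β-1,3 and β-1,6 links that was purified from the seaweed Durvillaea Antarctica. The labels name no other treatment of these tumors, and the sources used here give no dose, day or age. There were 6 vehicle libraries and 6 BG136 libraries, but the reads of BG136 replicates 7 and 9 agreed more closely than separately drawn reads would. Their chi-square per gene was 0.285, where counting alone gives about 1 and the other 29 pairs had 7.88 to 57.4. Both were therefore averaged as 1 sample, leaving 5 BG136 samples. Separate animals are not mentioned in the labels, and p-values therefore measure only the spread between these samples, which may be technical.

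Most histone proteins are made while DNA is copied, when new DNA needs to be packaged, and the mRNAs of the clustered genes rise and fall with S phase. These mRNAs are unlike others in that they end in a short stem-loop, bound by the protein Slbp, and carry no poly(A) tail. A smaller number of histone genes, such as H1f0, are transcribed outside S phase and make ordinary polyadenylated mRNA. The libraries were prepared with a stranded mRNA kit, a kind that selects RNA by its poly(A) tail, so the levels below describe the captured RNA and not the total histone mRNA of the tumors. Because each tumor block is a mixture, fewer cells of a type and less RNA per cell cannot be told apart.

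The stem-loop was looked for in the GENCODE M21 transcripts of each member, as a 16-base motif known as the histone stem-loop, on the transcript strand. It was found in 37 of the 55 members, that is in 67.3%, against 0.470% of the 21901 protein-coding genes searched, and it occurred in 8 different spellings. Those of genes to which the results below return are printed 5′ to 3′ as DNA, with 5 bases on each side in lower case and the stem-loop in capitals.
H1f2: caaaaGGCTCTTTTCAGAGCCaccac
H2ac11: acaaaGGCTCTTTTCAGAGCCaccta
H2bc11: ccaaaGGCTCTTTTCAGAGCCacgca
H3c3: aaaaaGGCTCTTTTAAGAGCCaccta
H3c8: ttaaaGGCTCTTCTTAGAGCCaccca
H4c9: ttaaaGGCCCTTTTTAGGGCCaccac
H4c4: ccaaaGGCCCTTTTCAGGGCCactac
H4c2: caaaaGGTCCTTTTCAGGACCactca
The spelling of H1f2, H2ac11 and H2bc11 was shared by 20 members of types H1, H2A, H2B and H3 and by no H4 gene. The spelling of H4c4 was found in 5 members, all of type H4, and that of H3c3 in 5 members of types H2B and H3. All 10 H4 genes with a stem-loop spelled its stem differently from the 20 members above, as the printed H4 sequences show.

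What followed the stem-loop differed between members. In 18 members, among them H2ac11, H2bc11 and H3c3, fewer than 100 bases of annotated transcript came after it, with 23 bases in H2ac11 and in H2bc11 and 74 bases in H3c3. In 19 members the annotated transcript went on for 100 bases or more, with 330 bases in H4c9, 770 bases in H4c4 and 840 bases in H1f2. No stem-loop was found in 18 members, but in 8 of these the annotated transcript was the coding sequence alone, so the stretch where it would lie was not in the annotation. The other 10 included both genes outside the clusters, H1f0 and H1f10, as well as H2bc4, annotated with up to 2 exons, and H2bc21, with a transcript of 2620 bases. Also among the 10 were H1f5, H2ac10, H2ac12, H2ac21 and H3c13, with annotated transcripts of 399 to 743 bases. Each was shorter than the length over which its reads were counted, so its end may be missing from the annotation as well. A poly(A) signal, AATAAA or ATTAAA, stood in the last 40 bases of the annotated transcript in 1 of the 18 members with a short end and in 8 of the 19 with a longer one. The transcripts of H4c9, H1f2, H2bc21, H1f0 and H1f10 were among the 13 members that had it, and that of H2bc4 was not. Over all protein-coding transcripts 48.7% had the signal there.

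Levels ranged over 3 orders of magnitude and were concentrated in a few genes. FPKM, fragments per kilobase of transcript scaled to library size, is a level per length, here the length over which reads were counted. In 18 of the 19 members with a longer end that length was shorter than the annotated transcript. It was 403 against 727 bases in H4c9 and 725 against 1560 bases in H1f2. Capture by the poly(A) tail may differ between genes as well, so comparisons between genes describe captured RNA over the counted length. H1f0, the linker histone outside the clusters, had the highest mean over the 11 samples, at 90.5 FPKM. Within the clusters H4c9 led with 43.1 FPKM, followed by H2bc4 with 25.1, H1f2 with 12.7 and H3c3 with 7.09. These 4 genes held ranks 1 to 4 in that order in each of the 11 samples. They made up 65.2% of the summed FPKM of the 53 cluster genes in vehicle tumors and 65.5% in BG136 tumors.

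**Figure D1:**
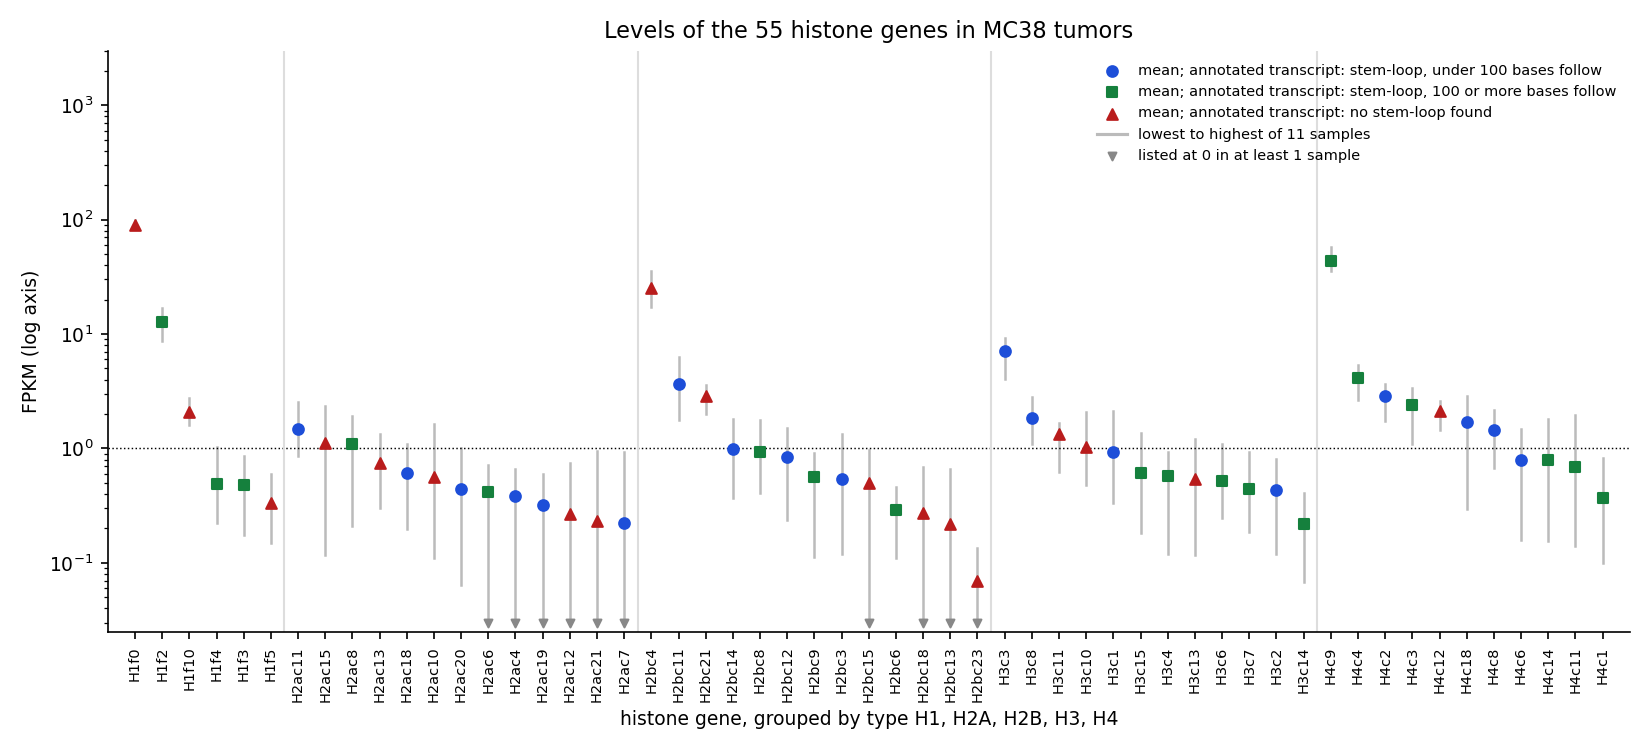
Mean FPKM of each of the 55 histone genes (symbols, log axis), grouped by type, with a line from the lowest to the highest of 11 samples; symbol shapes mark what the annotated transcript holds, and triangles at the foot mark genes listed at 0 in at least 1 sample. In each type except H2A 1 gene stands well above the rest, and 35 of the 55 means lie under the dotted line at 1 FPKM.

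Most other members had few reads. Mean FPKM was under 1 in 35 of the 55, and 29 members had fewer than 100 reads over all libraries together, the fewest being 25 reads for H2ac21. A total of 10 members were listed at 0 in at least 1 sample, and only 5 members (H1f0, H2bc4, H4c9, H1f2 and H2bc21) reached 1000 reads. The 53 cluster genes together had 62.5 to 94.0 reads in every 1000000 reads of a sample. In a list of other histones and histone variants, the 10 genes present ranged from 0.280 FPKM for Macroh2a2 and 0.400 for H2bu2 to 301 for H2az1, as means over the samples. H2az1 encodes the variant H2A.Z. H3f3b and H3f3a, which encode H3.3, averaged 247 and 229 FPKM, and H2ax, the variant phosphorylated at DNA breaks, 86.8 FPKM. H2az2, H2aj and Macroh2a1 were at 23.7, 29.4 and 32.4 FPKM.

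The types also differed in how their RNA was divided. One H1 gene of the clusters, H1f2, held 90.7% of the summed mean FPKM of the 4 cluster H1 genes, and the next, H1f4, averaged 0.487 FPKM. H4c9 held 71.3% of the H4 sum, H2bc4 68.2% of the H2B sum and H3c3 45.5% of the H3 sum. Among the 13 H2A genes none led in this way: H2ac11, the highest, held 18.7% of the H2A sum with 1.47 FPKM, and H2ac15 followed with 1.12. The H4 genes had the highest median level of a type, at 1.71 FPKM, against 0.443 for H2A, 0.561 for H2B and 0.591 for H3. Although a nucleosome holds equal numbers of the 4 core histones, H2A genes made up 5.96% ± 1.18 (SD, n = 6) of the cluster FPKM in vehicle tumors and H4 genes 44.9% ± 2.5 (SD, n = 6). In BG136 tumors these shares were 5.92% ± 1.55 (SD, n = 5) and 44.8% ± 2.2 (SD, n = 5). H2A genes had more sequence in common with other genes than H4 genes, as described below (medians of 63.6% and 19.0% of stretches of 100 bases). The part of shared reads and of poly(A) capture in these percentages, and in the lack of a leading H2A gene, was not tested.

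Some H2A and H2B genes are neighbours that start back to back. In the GENCODE M21 annotation 7 pairs of an H2A and an H2B gene pointed away from each other with fewer than 1000 bases between their starts. The H2B gene was the higher of the pair in 4 and the H2A gene in 3. H2bc4 and H2ac6, whose starts lie 251 bases apart, differed most, with means of 25.1 and 0.412 FPKM. H2bc21 and H2ac20, 239 bases apart, had 2.85 and 0.443 FPKM. H2bc11 and H2ac11, 270 bases apart, had 3.64 and 1.47 FPKM, and the pair H2bc8 and H2ac8, 176 bases apart, had 0.922 and 1.09. H2bc4 and H2bc21 are also the H2B genes of these pairs with long annotated transcripts in which no stem-loop was found.

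**Figure D2:**
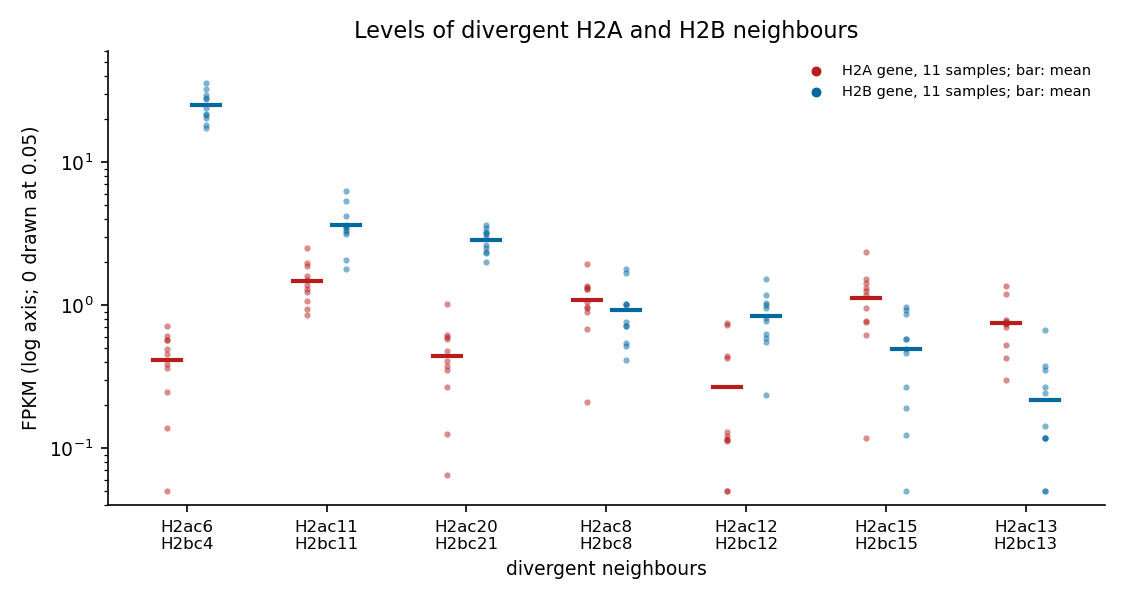
FPKM (log axis) of 7 pairs of divergent H2A (red) and H2B (blue) neighbours; points are the 11 samples, bars their means, and a value of 0 is drawn at 0.05. The samples of H2bc4 lie far above those of H2ac6, whereas those of H2bc8 and H2ac8 overlap.

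The letters of the promoters grouped by type as well. RefSeq promoters of GRCm38.p6 were found for 50 members, and the 250 bases before the start were searched on both strands. The CCAAT box was present in 13 of 13 H2A and 11 of 11 H2B promoters, in 8 of 10 H3 and 4 of 6 H1 promoters, but in 3 of 10 H4 promoters, against 37.5% of the promoters of all 27025 genes. The octamer ATTTGCAT, bound by Pou2f1 (Oct-1), was found in 5 H2A and 6 H2B promoters and in no promoter of another type, against 1.81% of all genes. The divergent H2A and H2B neighbours start 176 to 302 bases apart, so the searched stretches of such a pair overlap. The H2A and H2B counts are therefore not all of separate sequence. TATAAA was present in 42.0% of the members' promoters against 14.3% of all. The promoter of H2bc4 was not among those searched. A match of these letters is a description of the sequence and not a binding site.

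Near-identical copies limit what a single value means. Of the annotated transcript sequence of the 55 members, windows of 100 bases were compared with those of other histone genes and of genes with provisional Gm names. A window identical to one in another gene was present in 49 members, and in 20 members at least 50 percent of the windows were shared. The median share was 63.6% in H2A genes, 49.7% in H3, 40.1% in H2B, 19.0% in H4 and 0.396% in H1 genes. Among the genes named below it was 0% for H1f0, H1f10, H2bc21 and H4c4, 5.07% for H1f2, 15.1% for H4c9, 25.4% for H2bc4, 28.4% for H3c3 and 10.5% for H2ac15. With windows of 50 bases it was 52.3% for H2ac15. With windows of 100 bases it was 76.2% for H2ac11, 80.7% for H4c18 and 92.0% for H3c10. The annotated transcripts of H4c9, H1f2, H2bc4 and H3c3 were longer than the lengths over which reads were counted. The share within the counted part was not computed and may be higher. The sources used here do not say how reads that match several copies were counted, so the values of H2ac15, H2ac11, H4c18, H3c10 and other highly shared members are uncertain.

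BG136 and vehicle tumors were then compared gene by gene, to ask whether the glucan alone altered the levels. No histone gene passed the threshold. Differences were tested on log2(FPKM + 1) with limma's moderated linear model, two-sided and with Benjamini-Hochberg adjustment over all 11356 genes that had at least 1 FPKM in at least 6 of the 11 samples. Of the members 19 met this filter: 3 each of types H1, H2A, H2B and H3, and 7 H4 genes. An adjusted p under 0.05 was reached by 0 of the 19 and by 0% of all genes tested. An unadjusted p under 0.05 was given to 1 member, H2ac15, and to 2.05% of all genes tested. Of the 19 tested members 15 were lower and 4 higher in BG136 tumors, with a median log2 difference of -0.11, where 42.6% of all genes tested were lower and the median was 0.018. The 6 vehicle samples alone can meet the filter and the 5 BG136 samples alone cannot, so no weight is put on that count. Without the filter, over all 55 members, 32 were lower and 23 higher, which is 58.2% lower against 43.4% of all listed genes. The median was -0.064, against 0.013 for all listed genes.

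**Figure D3:**
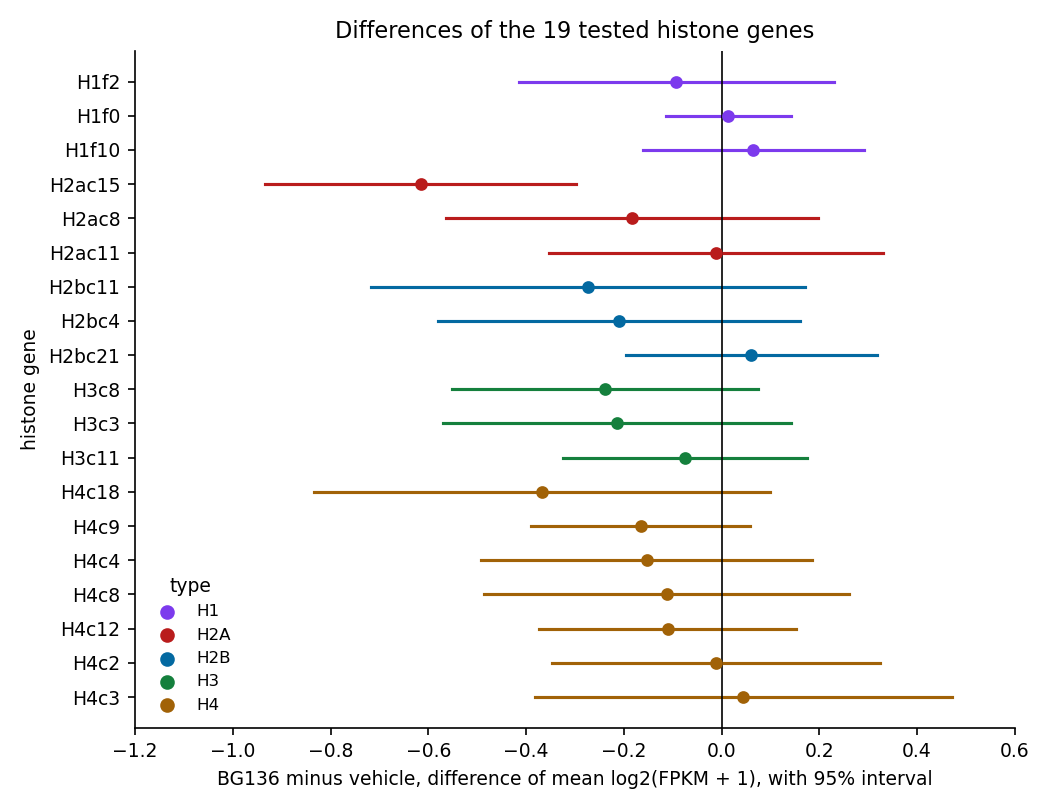
Difference of the mean log2(FPKM + 1), BG136 minus vehicle, for the 19 tested histone genes by type, with 95% intervals from limma. The interval of H2ac15 lies below 0, and the other 18 intervals include 0.

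H4c9 encodes histone H4, as do all the H4c genes. Its level was 42.3, 43.8, 35.3, 41.2 and 38.3 FPKM in BG136 replicates 1, 2, 4, 6 and 7-9, and 38.7 to 57.5 FPKM in vehicle samples, with a median of 42.1. The groups overlapped, and the highest values belonged to vehicle replicates 11 and 12, with 52.2 and 57.5 FPKM. The log2 difference was -0.17 (95% interval -0.39 to 0.058; limma adjusted p = 0.978).

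H2bc4, an H2B gene, was at 27.6, 23.8, 18.2, 28.1 and 17.3 FPKM in the BG136 samples in the same order and at 20.4 to 35.8 FPKM in vehicle samples, with a median of 25.5. Vehicle replicates 1, 11 and 12 were above all BG136 samples and BG136 replicates 4 and 7-9 below all vehicle samples, and the rest intermingled. The log2 difference was -0.21 (95% interval -0.58 to 0.16; limma adjusted p = 0.978).

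H1f2, a linker histone, was named after its values had been seen because H1f0 leads its type from outside the clusters. It stood at 14.3, 12.7, 9.45, 16.8 and 8.67 FPKM in the BG136 samples and at 10.8 to 15.9 FPKM in vehicle samples, with a median of 13.0. BG136 samples included both the highest value, in replicate 6, and the 2 lowest, in replicates 4 and 7-9. The log2 difference was -0.092 (95% interval -0.41 to 0.23; limma adjusted p = 0.978).

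H3c3, an H3 gene, was at 5.90, 8.57, 7.07, 4.07 and 6.74 FPKM in BG136 samples and at 5.14 to 9.28 FPKM in vehicle samples, with a median of 8.03. The groups overlapped, with vehicle replicates 2, 7 and 11 above all BG136 samples and BG136 replicate 6 below all vehicle samples. The log2 difference was -0.21 (95% interval -0.57 to 0.14; limma adjusted p = 0.978). H2ac11, the highest H2A gene, was at 1.06, 0.857, 2.52, 1.60 and 1.38 FPKM in BG136 samples and at 0.935 to 1.96 FPKM in vehicle samples, with a median of 1.39. Both the lowest and the highest value were in BG136 samples, and the log2 difference was -0.011 (95% interval -0.35 to 0.33; limma adjusted p = 0.999).

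**Figure D4:**
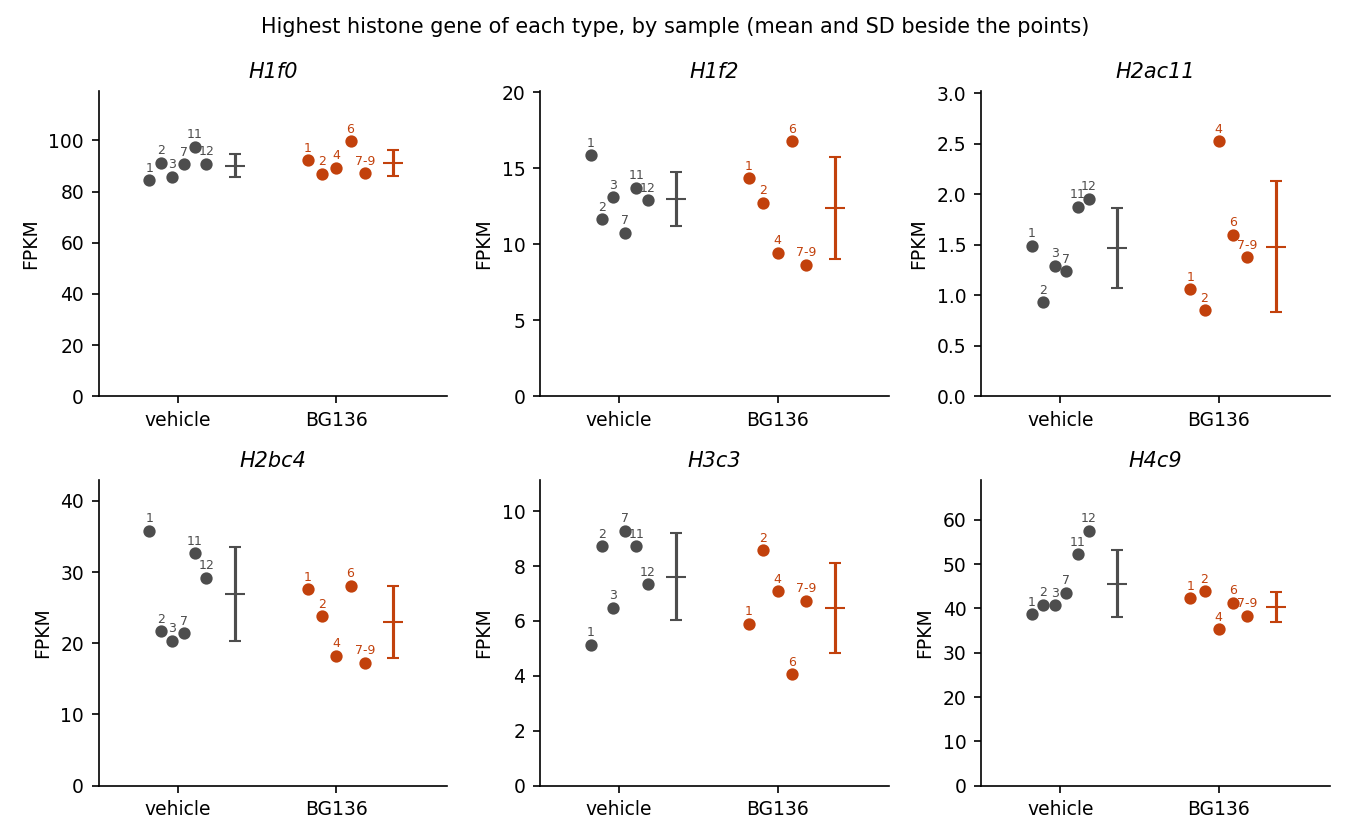
FPKM of H1f0, H1f2, H2ac11, H2bc4, H3c3 and H4c9 in the 6 vehicle and 5 BG136 samples; each point is a sample marked with its replicate number, and the bars beside the points give the mean and SD. The groups overlap in all 6 panels, with H1f0 spread least and H2ac11 most in relation to its mean.

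Of the genes outside the clusters H1f0 varied little between samples. H1f0, known as a linker histone of resting and differentiated cells, was at 92.1, 87.0, 89.4, 99.5 and 87.3 FPKM in BG136 samples and at 84.5 to 97.6 FPKM in vehicle samples, with a median of 90.8. Its coefficient of variation over the 11 samples was 5.15%, the lowest of the 55 members, and its log2 difference was 0.014 (95% interval -0.11 to 0.14; limma adjusted p = 0.985). H1f10 was at 1.78, 2.41, 2.08, 2.61 and 1.89 FPKM in BG136 samples and at 1.60 to 2.74 FPKM in vehicle samples, with a median of 1.93, and the groups overlapped throughout (log2 difference 0.065, 95% interval -0.16 to 0.29; limma adjusted p = 0.978). H1f10, H2bc21 and H1f0 had the smallest p among the 4 tested members with a log2 difference above 0, and none of these p was low. H2bc21 was at 3.23, 3.62, 1.99, 3.45 and 2.49 FPKM against 2.31 to 3.21 FPKM in vehicle samples with a median of 2.78. Here 3 BG136 samples lay above all vehicle samples and 1 below (log2 difference 0.061, 95% interval -0.20 to 0.32; limma adjusted p = 0.978).

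H2ac15, an H2A gene, was the sole member whose groups did not overlap. It was at 0.622, 0.755, 0.778, 0.117 and 0.958 FPKM in BG136 replicates 1, 2, 4, 6 and 7-9 and at 1.18 to 2.37 FPKM in vehicle samples, with a median of 1.37. Every BG136 sample was below every vehicle sample, as was the case for 0.218% of all listed genes, and no member was higher without overlap, against 0.138% of all listed genes. These values rest on few reads: 6, 6, 7, 1 and 34 in the BG136 samples and 10 to 23 in vehicle samples. The 34 are summed over the pair of deep libraries, which may share reads. The log2 difference was -0.62 (95% interval -0.93 to -0.30; limma adjusted p = 0.978). On recovered reads limma's voom gave -1.26 (95% interval -2.10 to -0.43; adjusted p = 0.977). The authors' deposited table gave H2ac15 a log2 fold change of -1.07 with a p-value of 0.00499 and a q-value of 0.582. H2ac15 passed the filter through the vehicle group alone, with 6 of 6 vehicle samples and 0 of 5 BG136 samples at 1 FPKM or more. Fat cell markers separated the groups as well. All 6 tested of 7 adipocyte genes had lower means in BG136 tumors, 6 with an unadjusted p under 0.05 in limma and 0 with an adjusted one. The summed level of all 7 was 26.5 to 55.6 FPKM in BG136 and 62.1 to 94.6 FPKM in vehicle samples, with no marker at 0. Their part in the result for H2ac15 was not tested.

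By p, the members next to H2ac15 among those with a log2 difference below 0 were H4c18 and H3c8. H3c8, an H3 gene, was at 1.36, 1.10, 1.69, 2.82 and 1.14 FPKM in BG136 samples and at 1.43 to 2.32 FPKM in vehicle samples, with a median of 2.13. Although 3 BG136 samples were below all vehicle samples, BG136 replicate 6 was the highest of all (log2 difference -0.24, 95% interval -0.55 to 0.074; limma adjusted p = 0.978). H4c18 was at 2.33, 1.83, 0.293, 1.55 and 0.967 FPKM in BG136 samples and at 1.30 to 2.89 FPKM in vehicle samples, with a median of 2.08. BG136 replicates 4 and 7-9 lay below the vehicle samples and the others within them (log2 difference -0.37, 95% interval -0.83 to 0.10; limma adjusted p = 0.978).

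The other variable members had groups that overlapped. H2ac8 was at 0.896, 0.967, 0.961, 0.677 and 1.06 FPKM in BG136 samples and at 0.210 to 1.93 FPKM in vehicle samples, with a median of 1.32. Vehicle replicate 1 held the lowest value and the other 5 vehicle samples were above all BG136 samples. H4c8 was at 1.15, 2.17, 0.822, 1.59 and 1.01 FPKM against 0.675 to 2.18 FPKM with a median of 1.65, so that the vehicle range enclosed the BG136 range. H3c10 was at 0.569, 0.691, 0.854, 1.03 and 0.775 FPKM against 0.481 to 2.08 FPKM with a median of 1.25, and reached 1 FPKM in 5 samples, 1 too few for the filter.

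The 36 members below the filter were tested in a fit of all listed genes. There 5 of the 55 members had an unadjusted p under 0.05, against 3.12% of all genes, and none an adjusted one. They were H2ac15 again and, lower in BG136 tumors, H1f3 (0.315 ± 0.135 against 0.621 ± 0.203 FPKM; SD, n = 5 and 6), H4c11 (0.381 ± 0.248 against 0.956 ± 0.549) and H3c4 (0.442 ± 0.248 against 0.691 ± 0.160). H2bc6 was the higher one, at 0.354 ± 0.085 against 0.239 ± 0.075 FPKM. All 4 had between 64 and 164 reads in all libraries together, and limma's adjusted p was 0.982 for each. With voom on recovered reads the number was 4 of 55 against 3.52% of all genes, with H4c6 in place of H3c4 and H2bc6. In the authors' deposited table a p-value under 0.05 was given to 4 members, which is 7.27% against 5.05% of all genes. The lowest q-value of a member there was that of H2ac15, and 37 of the 55 log2 fold changes were negative against 49.5% of all.

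The directions were also counted by type, in 2 analyses that rest on the same samples. In the fit of all listed genes 9 of 11 H4 genes, 8 of 12 H3 genes, 8 of 13 H2A genes, 3 of 6 H1 genes and 4 of 13 H2B genes were lower in BG136 tumors. Of all listed genes 43.4% were lower in that fit. In the authors' deposited table the numbers were 10, 8, 9, 4 and 6, where 49.5% of all log2 fold changes were negative. The summed FPKM of the 11 H4 genes was 64.2 ± 9.5 (SD, n = 6) in vehicle tumors and 56.0 ± 6.2 (SD, n = 5) in BG136 tumors. For the 12 H3 genes the sum in BG136 tumors was 14.3 ± 1.7, against 16.7 ± 2.7 in vehicle tumors. With BG136 tumors first, the sums were 7.26 ± 1.15 and 8.41 ± 1.34 for the 13 H2A genes, 34.3 ± 5.7 and 38.9 ± 6.2 for the 13 H2B genes, and 13.5 ± 3.7 and 14.5 ± 1.9 for the 4 cluster H1 genes. Each of these 5 differences was smaller than the larger SD of its 2 groups, and the genes that make up a sum share reads and samples.

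The sum over all 53 cluster genes showed which samples lay high and low. It was 137, 135, 109, 135 and 110 FPKM in BG136 replicates 1, 2, 4, 6 and 7-9, and 136, 133, 129, 132, 165 and 161 FPKM in vehicle replicates 1, 2, 3, 7, 11 and 12. The samples at the top were vehicle replicates 11 and 12, those at the bottom BG136 replicates 4 and 7-9, and the other 7 lay between 129 and 137. Without the 4 highest genes the sums were 39.0 to 47.2 FPKM in BG136 and 40.3 to 57.6 FPKM in vehicle samples. In vehicle replicates 11 and 12 Mki67, a marker of dividing cells, had its lowest levels, 23.2 and 30.8 FPKM, against 39.9 to 48.3 FPKM in the other samples. Pcna, the clamp of the replication polymerases, was at 208 FPKM in both, the upper end of its range of 166 to 208. The summed genes of G2 and M phase were at 542 and 571 FPKM there, within the 491 to 618 FPKM of the other samples. Summed S phase genes were at 1062 and 1049 FPKM, against 890 to 1071 FPKM in the other samples. The summed list of other histones and histone variants, at 1124 and 1121 FPKM, was higher there than in any other sample. The part of all these genes in the histone sums was not tested. Vehicle replicates 11 and 12 also stood apart beyond these genes, by the chi-square per gene between pairs. Against vehicle replicates 1, 2, 3 and 7 it was 37.9 to 57.4 for replicate 11 and 20.3 to 32.7 for replicate 12. Between 11 and 12 it was 12.9, and among replicates 1, 2, 3 and 7 it was 9.03 to 18.4. BG136 replicates 4 and 7 had 8.06, where BG136 pairs ran up to 47.9. The part of this wider split in the histone sums was not tested.

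How far the spread between tumors exceeded counting error was judged from the recovered reads, by a chi-square per degree of freedom that is about 1 where reads vary by counting alone. It was 27.9 for H2bc4, 10.2 for H1f2, 10.1 for H1f0, 7.45 for H4c9, 4.90 for H2bc21, 3.72 for H2bc11 and 3.12 for H3c3, and over 3 for 11 members in all. For 29 of the 55 members it was under 2. Among the 30 members with at least 50 and under 200 reads its median was 1.90, against 2.07 for the 1431 listed genes in that range. It grows with the number of reads, so these values do not rank the genes by their spread: the coefficient of variation was 23.9% for H2bc4, 19.6% for H1f2, 14.8% for H4c9 and 35.7% for H2bc11. The summed reads of BG136 replicates 7 and 9 entered the chi-square and may hold the same reads more than once.

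The members with enough reads did not all vary together. Over the 11 samples 27 correlations of log2(FPKM + 1) were computed, between the highest member of each type and with Slbp and Mki67, of which the 7 with H1f2 were added after its values had been seen. After adjustment over the 27 a single pair passed, H1f2 and H2bc4, with Pearson's r of 0.84 (permutation p = 0.00092, adjusted p = 0.0248). Spearman's rho was 0.79 (permutation p = 0.00525, adjusted p = 0.0772), and without the 2 samples farthest from the median of H1f2 r was 0.69 (permutation p = 0.0388, adjusted p = 0.209), so that the call was lost without them. It was also lost when any 1 of vehicle replicates 2, 7 and 12 or BG136 replicates 1, 2, 4 and 7-9 was left out, since no pair then passed. Within the 6 vehicle samples r was 0.80, given without a test. That value was not particular to this pair, since H1f0 and H3c3 also had r of 0.80 there and H1f2 and H3c3 had -0.83. H1f2 and H2bc4 were both low in BG136 replicates 4 and 7-9 and both high in vehicle replicate 1.

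**Figure D5:**
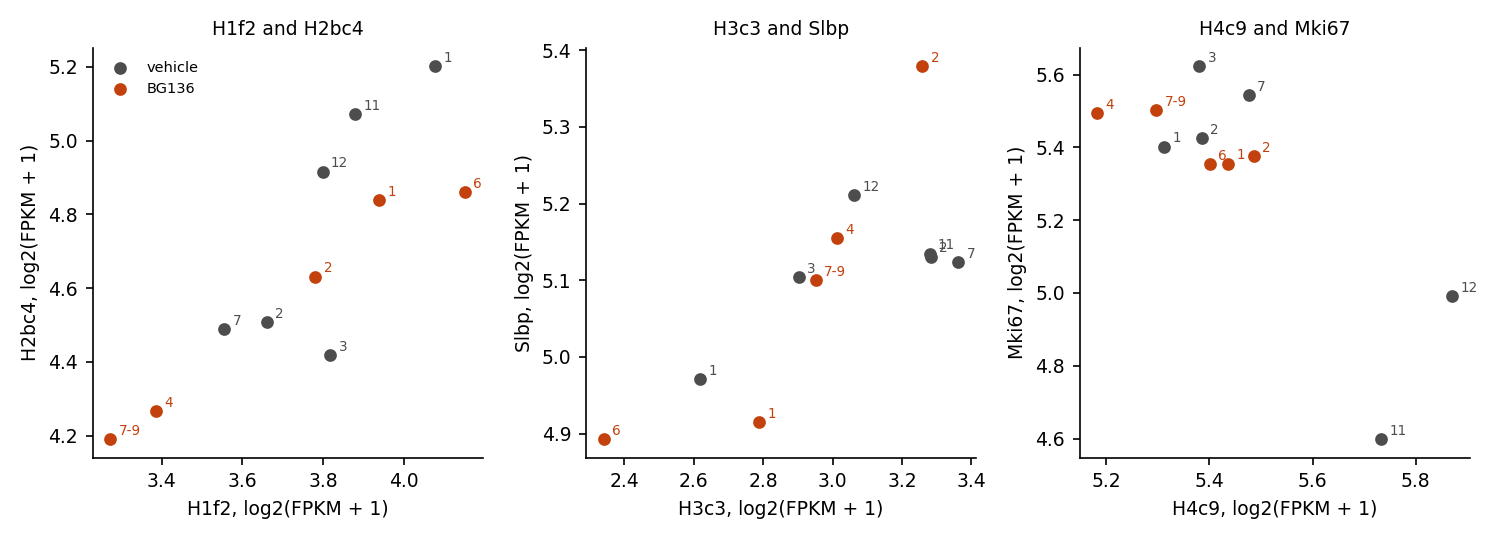
Levels as log2(FPKM + 1) of H1f2 against H2bc4, H3c3 against Slbp and H4c9 against Mki67 in 6 vehicle and 5 BG136 samples, each point marked with its replicate number. BG136 replicates 4 and 7-9 lie lowest on both axes of the first panel, and in the last panel vehicle replicates 11 and 12 stand apart from the other 9 samples.

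Other pairs did not pass. H3c3 and H1f2 had r of -0.54 (permutation p = 0.0834, adjusted p = 0.376) and, without the 2 samples farthest on the axis of H1f2, r of -0.90 (permutation p = 0.00059, adjusted p = 0.0159), a change that also rests on the choice of samples. H3c3 and Slbp, the stem-loop binding protein, had r of 0.76 (permutation p = 0.00648, adjusted p = 0.0875) and rho of 0.70 (permutation p = 0.0203, adjusted p = 0.183), and r of 0.57 without the 2 farthest samples (permutation p = 0.103). Slbp was at 28.7 FPKM in BG136 replicate 6, where H3c3 was lowest, and at 40.6 FPKM in BG136 replicate 2. H4c9 and Mki67 fell into 2 clusters, since vehicle replicates 11 and 12 combined high H4c9 with low Mki67, and over the other 9 samples r was -0.23 (permutation p = 0.56). H2bc4 and Mki67 had r of -0.63 (permutation p = 0.0266, adjusted p = 0.179) and rho of -0.79 (permutation p = 0.00572, adjusted p = 0.0772), and r of -0.75 without the 2 samples farthest on the axis of H2bc4 (permutation p = 0.00935, adjusted p = 0.123). H2bc4 and H4c9 had r of 0.52 (permutation p = 0.104, adjusted p = 0.401).

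No gene of histone transcription or mRNA processing passed the threshold. All 12 genes of that list were in the table and 11 were tested, of which 5 were higher, 6 lower and 0 had even an unadjusted p under 0.05 in limma, with a median log2 difference of -0.0081. In vehicle tumors Slbp was at 33.6 ± 1.8 FPKM (SD, n = 6), and in BG136 tumors at 33.3 ± 4.8 (SD, n = 5). The following pairs of values give vehicle tumors first. Eri1, an exonuclease that trims histone mRNA, was at 13.1 ± 1.0 and 12.8 ± 0.6 FPKM, and Npat, the coactivator of histone genes at their clusters, at 7.24 ± 1.72 and 7.49 ± 0.33. Lsm10, a subunit of the particle that cuts histone pre-mRNA, was at 25.0 ± 5.1 and 21.1 ± 1.1 FPKM with an adjusted p of 0.978 in limma.

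Histone variants, chaperones and cell cycle genes were counted in the same way. Of the 8 tested genes of other histones and histone variants 2 were higher and 6 lower, and 0 passed. Of 17 histone chaperone genes 5 were higher and 12 lower, of 22 S phase genes 6 and 16, and of 14 genes of G2 and M phase 4 and 10, again with 0 past the threshold in limma and 0 at an unadjusted p under 0.05. Their medians were -0.050, -0.047, -0.036 and -0.031 on the log2 scale, where that of all genes tested was 0.018. In BG136 tumors H2az1 was at 285 ± 34 FPKM, against 315 ± 39 in vehicle tumors, and Pcna at 182 ± 15 against 199 ± 10. The list of other RNAs without a poly(A) tail had 0 of 13 genes in the table, so the capture of such RNA could not be set beside that of the histones.

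Depth was 14828786 to 18125931 recovered reads in 10 libraries and 33231037 and 32956232 in BG136 replicates 7 and 9. The summed level of 5 epithelial markers, chosen because MC38 derives from an epithelial tumor, was 13.0 to 29.9 FPKM in vehicle and 3.13 to 33.2 FPKM in BG136 samples, with Krt8 at 0 in 1 sample and Krt18 in 2. Sums of 7 skeletal muscle genes ran from 1.59 to 266 FPKM in vehicle and from 2.01 to 179 FPKM in BG136 samples, those of 7 T cell genes from 64.5 to 97.9 and from 31.9 to 113, and those of 7 macrophage genes from 2032 to 2699 and from 1739 to 2623. The epithelial list had 4 of its 5 genes lower in BG136 tumors, with a median log2 difference of -0.80, 1 unadjusted p under 0.05 in limma (Epcam) and 0 adjusted ones. Of the neutrophil, endothelial and red cell lists 0 genes had an adjusted or unadjusted p under 0.05 in limma. The ranges of the summed levels overlapped between the groups, unlike those of the adipocyte genes, and their part in the histone values was not tested.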

How the data were processed

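Stranded mRNA libraries were made from total RNA, per the labels' protocols. The authors deposited 1 table with FPKM per library, base means (a signal averaged over all libraries or 1 group), linear fold changes, log2 fold changes, p-values and q-values for BG136 over vehicle, a ratio, per the file headers. Trimmomatic, HISAT2, Cufflinks, HTSeq, DESeq and the build GRCm39 are named in the submitters' processing notes; the sources used here give no versions. Whole reads were recovered from FPKM and base means (100% within 0.1 of a whole number). The gene lengths this implies equalled the RefSeq gene length for 52 of the 55 members; the other 3 are spliced.

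Genes were tested that reached 1 FPKM in 6 or more of 11 samples, by limma 3.58.1 (R 4.3.3) with a trend on log2(FPKM + 1), so differences of low genes are understated. The steps were checked on simulated data. Alternatives were a pseudocount of 0.1, no filter, all 12 libraries, median-of-ratios scaling, a replicate block, voom and samples left out. Correlations used 100000 permutations in Python 3.11.15. Members and lists were chosen with earlier results of these data known. Genes named in full were the highest of each type, the 3 with the lowest p in each direction, those outside the clusters, the 5 most variable with a mean of at least 1 FPKM, and any whose groups did not overlap; H1f2 was added later.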

Additional observations from a re-analysis of the deposited data

Results flagged for a closer look

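In a comparison of 28 group values of the named genes, 2 had a single sample apart from the rest of its group. Chance alone sets about 1 in 20 groups apart in this way where genes are not chosen by their spread. Both genes, H2ac15 and H2ac8, were among those named for a large spread over these same samples, so that rate does not hold for them. H2ac15 was at 2.37 FPKM in vehicle replicate 2, from 23 reads, where the next highest vehicle sample was at 1.51 FPKM. H2ac8 was at 0.210 FPKM in vehicle replicate 1, from 2 reads, where the next lowest vehicle sample was at 1.29 FPKM. Its gap from the rest was only just large enough to be flagged.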

How the results depend on the processing

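Under all 20 alternatives of the fit 0 genes and 0 histone members passed the threshold, with 150 to 534 genes and 1 to 5 members at an unadjusted p under 0.05. The median log2 difference of the members stayed below 0, from -0.22 with voom on recovered reads without a filter to -0.029 without vehicle replicates 11 and 12; leaving out 1 sample gave -0.17 to -0.063. Replicate numbers 1, 2 and 7 occur in both groups, and the deviations of same-numbered samples had correlations of 0.41, -0.24 and 0.19. They were positive in 2 of the 3 pairs, which was not taken to pair the samples. With the replicate block over those 6 samples 0 genes passed, 2 members had an unadjusted p under 0.05, and the members' median was -0.044. Of 13 named members, 7 kept their direction throughout. H4c9 was at 0.016, H2ac8 at 0.076 and H4c8 at 0.18 with the replicate block and with the same 6 samples without it, and H1f0 at -0.00066 in both. H1f0 was at -0.00056 with median-of-ratios scaling and between -0.018 and 0.037 when 1 sample was left out. H2ac11 was at 0.12 and H4c8 at 0.027 without vehicle replicates 11 and 12. H2ac11 ranged from -0.15 to 0.085 and H1f2 from -0.20 to 0.016 when 1 sample was left out. Fewer samples enter most of these fits; the cause was otherwise not tested. H2ac15 ranged from -1.26 with voom to -0.48 without BG136 replicate 6. Of the correlations, 1 pair passed in the main setting, 0 with Spearman's rho and 0 to 3 when 1 sample was left out. Most members had few reads, which limits the precision of their differences; no size of detectable difference was computed.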
